A study of Mus musculus with 7 samples.

Results

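The Ly6 family genes were described here across the cells that infiltrated the central nervous system of mice with experimental autoimmune encephalomyelitis (EAE), an induced disease that models multiple sclerosis, taken at its peak. The members were the 7 genes of 27998 in the files with the symbols Ly6a, Ly6c1, Ly6c2, Ly6d, Ly6e, Ly6g and Ly6i, chosen by symbol alone. All 7 lie on chromosome 15 (GRCm38) within 397.1 kb. All mice were on the B6 background and had received MOG35-55 peptide, and either carried wild-type Lag3 (WT) or were deficient in Lag3, a T cell inhibitory receptor, through a floxed allele (Lag3KO); the Cre that acted on it is not named in the labels. Cells were taken with magnetic beads against CD4 or against CD45, which gave 2 WT_CD4, 2 Lag3KO_CD4, 2 WT_CD45 and 1 Lag3KO_CD45 single-cell libraries. The labels give 5 mice per group, matched for age, sex and disease score, but not which mice went into which library, so p-values measure the spread between libraries, which may be technical.

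Ly6 proteins are small, disulfide-rich proteins, most of them tied to the outer cell membrane by a lipid (GPI) anchor, and several serve as the surface antigens by which mouse leukocytes are sorted. Ly6C, encoded by Ly6c1 and Ly6c2, marks inflammatory monocytes, Ly6G marks neutrophils, and Sca-1, encoded by Ly6a, marks blood stem cells and activated lymphocytes. Ly6d is known from B cell precursors and plasmacytoid dendritic cells, Ly6e is a broadly expressed interferon-inducible gene that also restricts some viruses, and Ly6i is a less studied neighbour of Ly6a. In EAE, Ly6C-high monocytes enter the spinal cord and become macrophages and dendritic cells there.

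The members' places and sequences show which of them can be told apart by a short read. In gene order, Ly6d lies at chr15:74762056-74763620, Ly6e at chr15:74955051-74959905, Ly6i at chr15:74979534-74983430, Ly6a at chr15:74994877-74998031, Ly6c1 at chr15:75044018-75048830, Ly6c2 at chr15:75108158-75111970 and Ly6g at chr15:75155240-75159126. Ly6e and Ly6g are on the forward strand and the other 5 on the reverse strand. The longest protein-coding transcripts of Ly6c1 (844 bases) and Ly6c2 (822 bases) were 95.02% identical, and 93.5% over their last 300 bases, where a 3′ library reads. Over whole transcripts the next closest pair, Ly6a and Ly6g, was 78.3% identical, and over the last 300 bases it was Ly6c1 and Ly6i, at 84.6%, whereas Ly6d and Ly6e were distant from the rest. Counts of Ly6c1 and Ly6c2 are therefore uncertain wherever one of them is rare beside the other.

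RefSeq promoter windows (GRCm38.p6, 250 bases before to 50 bases after a start site) were given for 3 of the 7 members, the Ly6C pair and Ly6g, whose transcripts are alike and whose counts below fall in monocytes, T cells and neutrophils. Ly6a, Ly6d, Ly6e and Ly6i had no entry. The first window of each gene is printed 5′ to 3′ along the gene, with capitals for TATAAA (the TATA box) and GAGGAAGT (named here PU.1 for the myeloid transcription factor that binds such letters), searched on both strands without overlaps between the motifs. They were chr15:75048788-75049087 on the reverse strand for Ly6c1, chr15:75111922-75112221 on the reverse strand for Ly6c2, and chr15:75155011-75155310 on the forward strand for Ly6g.
Ly6c1: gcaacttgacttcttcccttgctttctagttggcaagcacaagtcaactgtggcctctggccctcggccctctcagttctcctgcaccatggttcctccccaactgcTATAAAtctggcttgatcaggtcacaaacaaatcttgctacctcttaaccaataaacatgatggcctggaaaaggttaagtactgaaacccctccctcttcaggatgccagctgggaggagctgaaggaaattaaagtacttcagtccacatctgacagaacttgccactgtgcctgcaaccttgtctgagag
Ly6c2: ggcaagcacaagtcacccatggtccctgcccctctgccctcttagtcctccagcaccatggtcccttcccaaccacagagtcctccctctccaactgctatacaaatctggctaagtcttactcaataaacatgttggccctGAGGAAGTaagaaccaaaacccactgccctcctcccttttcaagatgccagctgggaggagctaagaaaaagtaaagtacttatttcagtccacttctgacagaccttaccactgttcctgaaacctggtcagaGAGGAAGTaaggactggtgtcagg
Ly6g: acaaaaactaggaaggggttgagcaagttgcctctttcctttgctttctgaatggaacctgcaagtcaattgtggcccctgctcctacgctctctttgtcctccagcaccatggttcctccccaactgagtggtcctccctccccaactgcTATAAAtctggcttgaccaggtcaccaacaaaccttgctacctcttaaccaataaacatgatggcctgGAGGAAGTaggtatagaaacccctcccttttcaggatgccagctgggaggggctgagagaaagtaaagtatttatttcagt

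The Ly6c1 window holds TATAAA and no GAGGAAGT, the Ly6c2 window holds 2 copies of GAGGAAGT and no TATAAA, and the Ly6g window holds 1 of each. Among 32851 RefSeq promoter windows of the same length, 13.6% hold TATAAA and 3.2% hold GAGGAAGT. Neither interferon motif searched, the ISRE (GAAA, any 2 bases, GAAA; in 3.44% of windows) nor the GAS (TTCNNNGAA; in 8.3%), occurred in these 3 windows. The second RefSeq window of Ly6c1, from a later start site, does hold GAGGAAGT, so these letters mark a window and not a gene. A match is a description of the sequence and says nothing about binding.

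The 7 libraries held 1428 to 2517 cell barcodes and 4585251 to 18940186 transcript molecules, counted as unique molecular identifiers (UMIs). The median UMI count of a barcode ranged from 2151 to 2662.5 after CD4 selection and from 5680 to 6405 after CD45 selection. Lag3 itself gave 289 and 107 UMIs in the WT_CD4 libraries, 1 and 0 in the Lag3KO_CD4 libraries, 304 in WT_CD45 1, 2 in Lag3KO_CD45 1, and only 4 in the library labelled WT_CD45 2. Directions between genotypes drawn from CD45 cells rest on that label. Xist gave 4252 to 5761 UMIs in each CD4 library and 0 in each CD45 library, and Y-linked genes gave 2 to 4 against 2042 to 2275, so the bead selection and the sex of the mice cannot be told apart. Over the 21 pairs of libraries, 0 to 12 barcodes were shared.

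Each barcode was given a class from marker UMIs that included no Ly6 gene, and a class name below stands for barcodes that carried those markers (monocytes for monocyte-like, and so on). The monocytes of the CD45 libraries carried a median of 171 monocyte-marker and 23.4 macrophage-marker UMIs per 10000, and the macrophages carried 35.3 and 318. Monocytes, an intermediate class and macrophages are ranges of that ratio and not separate types: of 2780 barcodes between its ends, 318 lay close to the monocyte limit and 370 close to the macrophage limit (within 0.5 on the log2 scale). Levels are UMIs per 1000000 UMIs of a class in a library (CPM), and are compared between classes and not between genes.

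The members together took 0.371% to 0.443% of all UMIs after CD4 selection and 0.531% to 0.545% after CD45 selection. In the CD45 libraries the members differed in their patterns over the classes, though Ly6c1 followed Ly6c2 (r = 0.851 over the class-by-library profiles described below). Ly6c1, Ly6c2, Ly6a, Ly6e and Ly6d each had their highest mean in plasmacytoid dendritic cells, though Ly6e (3281 to 4009 CPM) and Ly6c1 (49.9 to 74.6 CPM) there overlapped with monocytes, Ly6i in macrophages and the intermediate class, and Ly6g in neutrophils. Migratory dendritic cells stood at the low end for Ly6c2, Ly6a and Ly6e. Outside migratory dendritic cells, Ly6e was the most evenly spread. In the other classes with enough barcodes in all 3 CD45 libraries, its means ran from 1408 CPM (NK cells) to 3662 CPM (plasmacytoid dendritic cells). Those of Ly6a ran from 432 to 3001.5 CPM in the same classes. Migratory dendritic cells held 271 CPM of Ly6e in WT_CD45 1, 166 CPM in the library labelled WT_CD45 2 and 299 CPM in Lag3KO_CD45 1, whereas monocytes held 3126, 3299 and 2989 CPM in the same libraries.

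**Figure D1:**
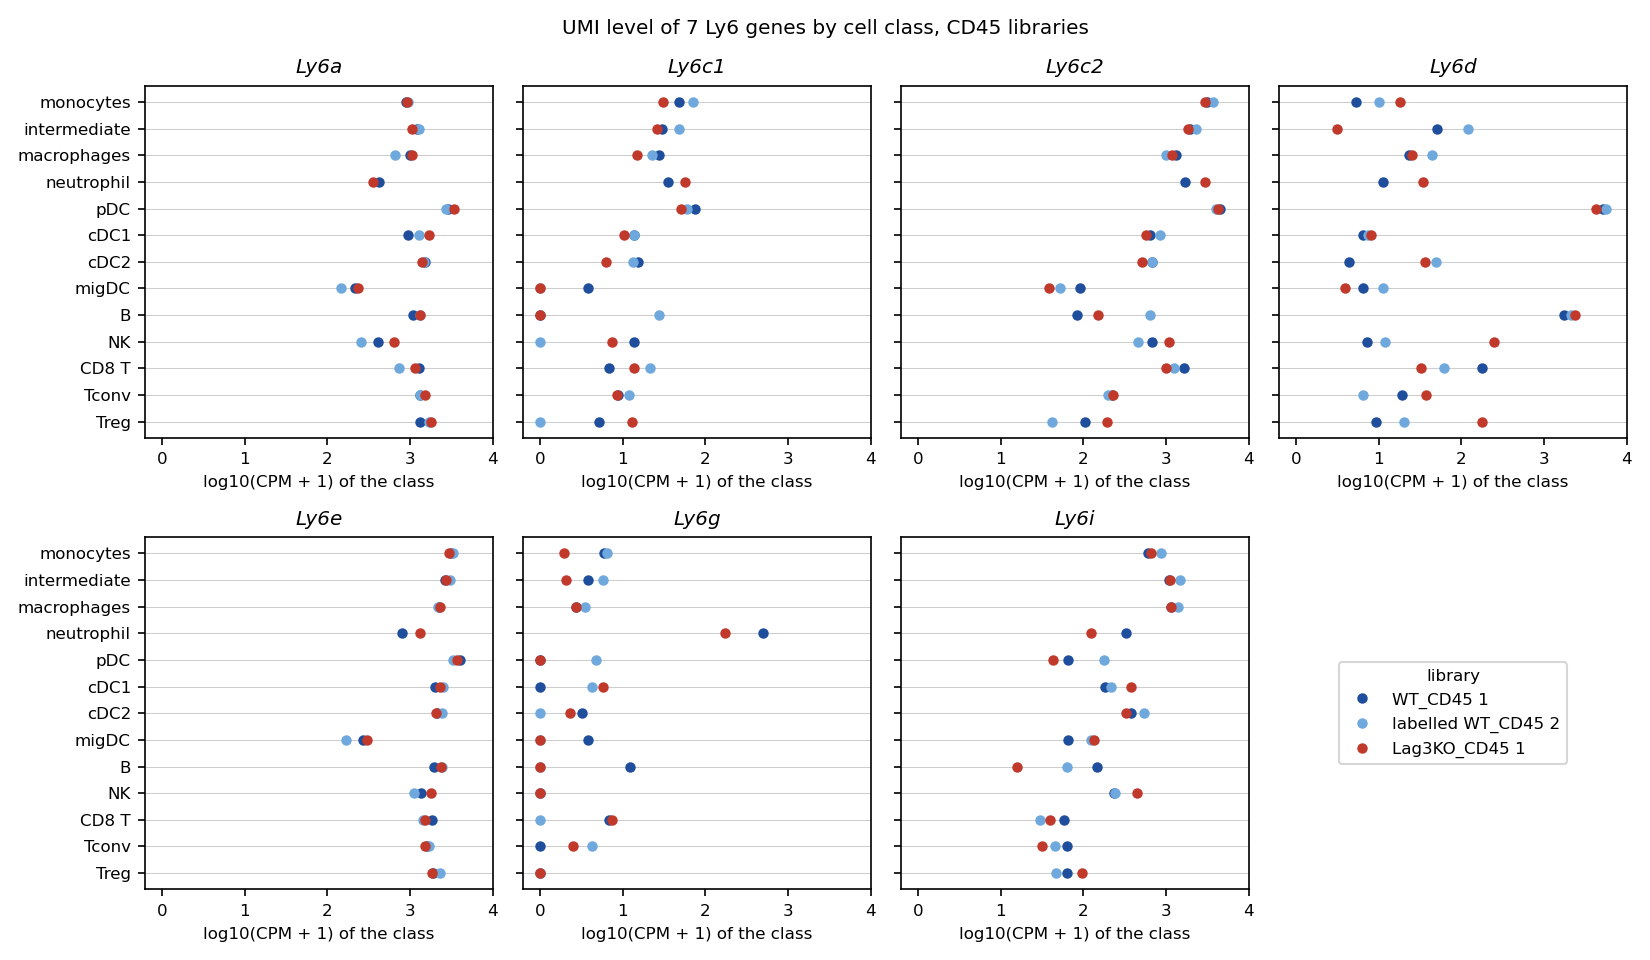
Levels of each Ly6 member, as log10(CPM + 1), by cell class in the 3 CD45 libraries, with 1 point per library (pDC, plasmacytoid dendritic cells; cDC1, cDC2 and migDC, conventional type 1, type 2 and migratory dendritic cells; Tconv, conventional CD4 T cells). Ly6d stands out in plasmacytoid dendritic cells and B cells, and Ly6g in neutrophils, where the library labelled WT_CD45 2 has no point because it held too few neutrophils. The marker list of the cDC2 class also covers monocyte-derived dendritic cells.

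The broadly expressed members ranked the classes differently. This order holds the classes with enough barcodes in each of the 3 CD45 libraries, so gamma delta T cells, neutrophils and microglia, with 2 such libraries each, stand outside it. For Ly6a, plasmacytoid dendritic cells (2720 to 3408 CPM) came first. Tregs (1305 to 1782 CPM), conventional type 2 dendritic cells, conventional CD4 T cells (1304 to 1534 CPM), conventional type 1 dendritic cells, B cells and the intermediate class followed, each overlapping with the next. NK cells (at most 636 CPM) and migratory dendritic cells (145 to 233 CPM) were at the low end. Outside the order, gamma delta T cells held 1536 and 3164 CPM of Ly6a, neutrophils 414 and 360 CPM and microglia 320 and 677 CPM. For Ly6e, plasmacytoid dendritic cells, monocytes and the intermediate class formed the top, at 2641 CPM or more, and Tregs (1858 to 2319 CPM) lay above conventional CD4 T cells (1520 to 1698 CPM) without overlap. For Ly6i, macrophages (1136 to 1408 CPM) and the intermediate class (1096 to 1463 CPM) overlapped, and monocytes lay below them at 604 to 861 CPM. The class named conventional type 2 dendritic cells, whose marker list also covers monocyte-derived dendritic cells, followed at 326 to 539 CPM. Microglia of the CD45 libraries held 506 and 383 CPM, in the same range, but those of the CD4 libraries held only 2.84 to 14.2 CPM. Barcodes with markers of different lineages were kept out of all classes, and they held 20.2% to 26.6% of the Ly6c2 UMIs, 25.5% to 32.2% of the Ly6i UMIs and 27.8% to 34.7% of the Ly6e UMIs of these libraries. They were 18.7% to 24.4% of the barcodes kept, with medians of 10167 to 11020 UMIs against 5680 to 6405 over all kept barcodes. Their share of all UMIs was not counted, so these member shares are no result about the Ly6 genes.

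Ly6c2, the main Ly6C gene of these cells, was highest in plasmacytoid dendritic cells and monocytes and fell towards macrophages. Plasmacytoid dendritic cells held 4478 CPM of Ly6c2 in WT_CD45 1, 4032 CPM in the library labelled WT_CD45 2 and 4257 CPM in Lag3KO_CD45 1. Monocytes held 3132, 3660 and 2922 CPM, the intermediate class 1948, 2310 and 1860 CPM, and macrophages 1305, 1000 and 1185 CPM in the same order. These 4 classes did not overlap between libraries. In Leiden clusters made without Ly6 genes, plasmacytoid dendritic cells held 3850, 3417 and 3370 CPM, monocytes 2705, 3432 and 2670 CPM and macrophages 1749, 1552 and 1582 CPM, so plasmacytoid dendritic cells and monocytes overlapped there and macrophages stayed below both. CD8 T cells, at 1638, 1236 and 997 CPM, overlapped with macrophages, and NK cells (674, 458 and 1077 CPM) overlapped with both macrophages and conventional type 1 dendritic cells (640, 837 and 579 CPM). At the low end, conventional CD4 T cells held 219, 199 and 227 CPM and migratory dendritic cells 91.1, 51.9 and 37.4 CPM.

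Set against monocytes with library as a block, macrophages had less Ly6c2 by a log2 difference of -1.49 ± 0.08 (SE; adjusted p = 1.94e-14, edgeR quasi-likelihood test with Benjamini-Hochberg adjustment, 3 CD45 libraries). Ly6c1 differed by -1.23 ± 0.16 and Ly6e by -0.50 ± 0.06, while Ly6i went the other way, by 0.79 ± 0.06 (adjusted p = 1.96e-10). In all, 2 of the 6 members tested were higher in macrophages and 3 were lower, in a comparison that called 33.9% of 8802 genes. The median over the members was -0.28 and over all genes 0.03. Leaving out any 1 library kept the Ly6c2 difference between -1.59 and -1.33. The Ly6d call (1.69 ± 0.27) rested on few barcodes: the 3 richest macrophages held 67 of 92 Ly6d UMIs in WT_CD45 1, 74 of 137 in the library labelled WT_CD45 2 and 50 of 98 in Lag3KO_CD45 1, and with stricter marker limits the difference was 0.12 (adjusted p = 0.88). Ly6a differed by -0.06 and was not called, and with stricter limits it was higher in macrophages by 0.40 (adjusted p = 0.0068).

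Ordered from the macrophage to the monocyte end in 8 steps of the marker ratio, the members followed different courses. The mean Ly6c2 level over the 3 CD45 libraries was higher at every step than at the one before, from 702 to 3601 CPM, and that of Ly6e went from 2155 to 3229 CPM. Ly6i lay between 1091 and 1325 CPM over the first 6 steps and at 823 and 631 CPM over the last ones. These courses are descriptions with no test. Ly6a was highest between the ends, with a mean of 761 CPM at the macrophage end, 1227 CPM at step 6 and 794 CPM at the monocyte end. At step 6 it was 1347 CPM in WT_CD45 1 and 1352 CPM in the library labelled WT_CD45 2. Lag3KO_CD45 1 held 983 CPM at that step and was highest at step 3, with 1174 CPM. The low value of Ly6a at the macrophage end came mainly from the library labelled WT_CD45 2, which held 476 CPM there against 979 CPM in WT_CD45 1 and 829 CPM in Lag3KO_CD45 1. The share of monocytes with a Ly6c2 UMI was 90.8% to 92.6%, and after each barcode was thinned to 1000 UMIs it was 70.2% to 78.9%, against 43.5% to 54.4% of thinned macrophages.

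**Figure D2:**
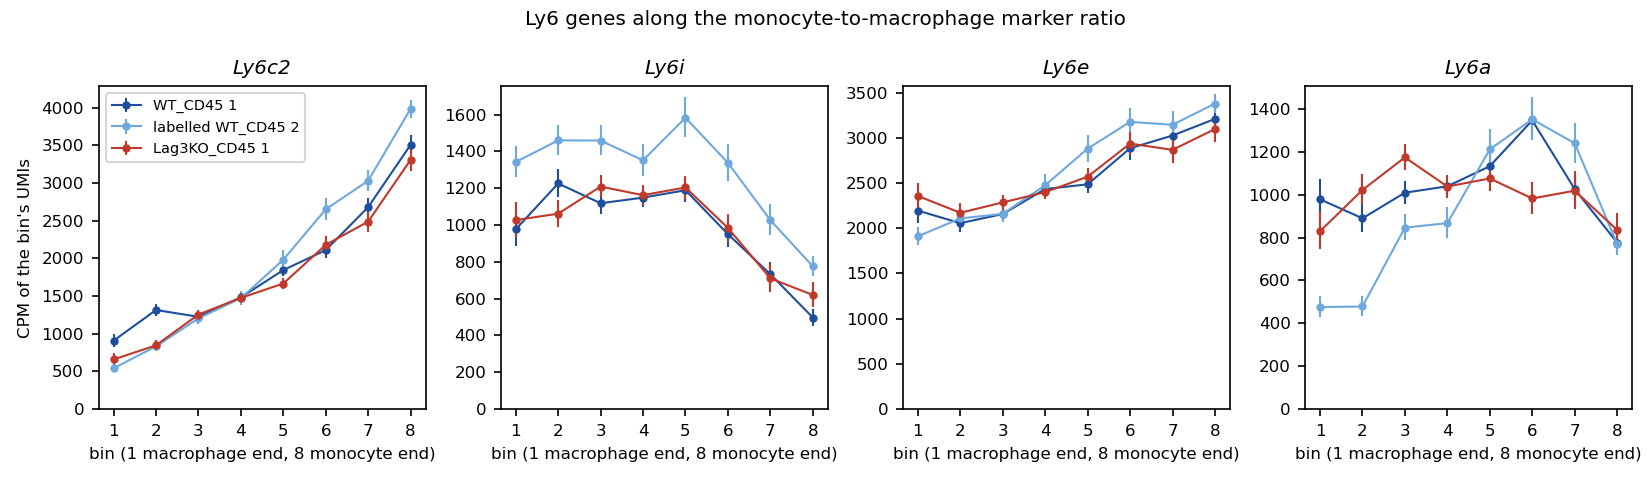
Levels of Ly6c2, Ly6i, Ly6e and Ly6a (CPM) over 8 steps of the ratio of monocyte to macrophage markers, macrophage end at the left, with 1 line per CD45 library and bars for the 95% Poisson interval of the count. Ly6c2 is highest at the monocyte end, Ly6i is lowest there, and Ly6a is highest between the ends.

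Free RNA can place UMIs of one cell type in another, so the levels in lymphocytes were set beside Lyz2, a lysozyme gene of myeloid cells. If all Lyz2 UMIs of conventional CD4 T cells had come from monocytes and macrophages and had brought Ly6c2 along in the same ratio, these T cells would have shown 37.1, 29.4 and 21.1 CPM of Ly6c2 in the 3 CD45 libraries; the measured levels were 219, 199 and 227 CPM. For Ly6i the corresponding levels were 20.3, 18.7 and 13.8 CPM against 63.1, 43.9 and 30.4 CPM measured, and in the CD4 libraries, which held few myeloid cells, Ly6i in conventional CD4 T cells was 2.00 to 7.43 CPM. Levels of Ly6i in lymphocytes of the CD45 libraries are therefore given as values only. Microglia showed the same split for Ly6c2, with 0, 0, 6.03 and 2.84 CPM in the 4 CD4 libraries. In the 2 CD45 libraries with enough microglia they held 521 and 422 CPM, where the Lyz2 ratio would give 687 and 531 CPM. For Ly6i the microglia of these 2 libraries held 506 and 383 CPM, where the ratio would give 437 and 346 CPM.

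The Ly6c1 share of the Ly6c1 and Ly6c2 UMIs was 1.56% in CD45 monocytes, 1.74% in macrophages, 1.40% in plasmacytoid dendritic cells and 1.67% in conventional type 1 dendritic cells. In the CD4 libraries the monocyte share was 0.106% and macrophages had 0 of 494 UMIs, a count that allows a share of up to 0.744% (exact binomial interval, counting error only). Conventional CD4 T cells and Tregs of the CD4 libraries had higher shares, 7.83% and 14.1%. Whether near-identical reads of Ly6c2 were assigned to Ly6c1 was not tested.

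Plasmacytoid dendritic cells, the professional type I interferon producers, had the highest class mean of 5 members, Ly6c1 among them. They held 5196, 5624 and 4287 CPM of Ly6d, in WT_CD45 1, the library labelled WT_CD45 2 and Lag3KO_CD45 1, and B cells held 1762, 2106 and 2360 CPM; every other class lay below both. Ly6a stood at 2877, 2720 and 3408 CPM in plasmacytoid dendritic cells against 890, 931 and 922 CPM in monocytes, without overlap. Ly6i was nearly absent, at 63.9, 179 and 41.6 CPM against 604, 861 and 662 CPM in monocytes. Against monocytes, Ly6d was higher by a log2 difference of 8.90 ± 0.18 and Ly6a by 1.53 ± 0.08, and Ly6i was lower by -3.16 ± 0.19 (SE, edgeR, 3 CD45 libraries with library as a block). Of the 6 members tested, 3 were higher and 1 was lower, where 48.9% of 6097 genes were called. The call on the third, Ly6c2 (0.22, adjusted p = 0.0204), was lost with DESeq2 (adjusted p = 0.401) and turned with stricter marker limits (-0.11), and Ly6e differed by 0.04. Of the other genes of the family, Ly6k (6.58 ± 0.51) and Lynx1 (4.78 ± 0.40) were also higher in plasmacytoid dendritic cells.

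Ly6g, the neutrophil antigen, was measured in neutrophils at 494 CPM in WT_CD45 1 and 172 CPM in Lag3KO_CD45 1, from 26 and 21 barcodes, while the library labelled WT_CD45 2 had only 8 neutrophils and entered no class level or test. No other class of the CD45 libraries was above 11.1 CPM. In the CD4 libraries, neutrophils held 255 and 285 CPM of Ly6g in the WT and 342 and 320 CPM in the Lag3KO libraries. Ly6g went with the granule genes Ngp, Camp and Ltf, which maturing neutrophils transcribe: pooled over the 3 CD45 libraries, these 8 included, 33 of 44 neutrophils with at least 2 granule UMIs had a Ly6g UMI (75.0%), and 0 of 11 neutrophils without them did. The libraries were not evenly spread over this split, since 9 of the 11 came from Lag3KO_CD45 1 and 24 of the 44 from WT_CD45 1. Within Lag3KO_CD45 1 the counts were 7 of 12 and 0 of 9. The 11 held 3680 CPM of Ly6c2 and 2750 CPM of Ly6e, where monocytes held 2922 to 3660 and 2989 to 3299 CPM. Their level of the neutrophil marker S100a8 was 41701 CPM, against 116200 CPM in the 44. The 156 neutrophils of the CD4 libraries without granule UMIs also had high Ly6e, at 2988 CPM, but 527 CPM of Ly6c2. Cxcr2 and Csf3r, also neutrophil markers, were 967 and 1071.5 CPM in those 156, and 65.5 CPM each in the 11. Whether these 11 were neutrophils was not tested, and the Ly6g level of Lag3KO_CD45 1 includes 9 of them. Its 12 with granule UMIs held 274 CPM of Ly6g. In the CD4 libraries the level was 513 CPM (386 to 668, 95% exact Poisson interval of the count) in 34 neutrophils with granule UMIs and 159 CPM (104 to 233) in 156 without. By library, the levels with and without granule UMIs were 336 and 163 CPM in WT_CD4 1, 603 and 86.5 CPM in WT_CD4 2 and 902 and 23 CPM in Lag3KO_CD4 2. Lag3KO_CD4 1 did not show the difference, at 366 CPM (158 to 722) with and 332 CPM (190 to 539) without them. The neutrophils with granule UMIs also had more UMIs in all, a median of 2990 against 1015 in the CD4 libraries, and the part of depth in the share of barcodes with Ly6g was not tested.

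Against monocytes, with 2 CD45 libraries, neutrophils had more Ly6g (log2 difference 7.10 ± 0.38) and less Ly6e (-1.22), Ly6i (-1.16) and Ly6a (-0.87). That is 1 of 7 members higher and 3 lower, where 16.2% of 5468 genes were called by edgeR, 481 of them higher and 405 lower; DESeq2 called 176 higher and 84 lower. DESeq2 did not call Ly6i (adjusted p = 0.124) or Ly6a (adjusted p = 0.222). Ly6e went with the granule split: pooled over the CD45 libraries, neutrophils with granule UMIs held 683 CPM and those without 2750 CPM. In the CD4 libraries these levels were 121 and 2988 CPM, and all neutrophils of a library held 1667 to 2284 CPM. Leiden neutrophils of the CD45 libraries held 1718, 2084 and 1783 CPM of Ly6e. Ly6c2, at 1692 CPM in WT_CD45 1 and 2927 CPM in Lag3KO_CD45 1, did not pass the test against monocytes (-0.09). In the 12 Lag3KO_CD45 1 neutrophils with granule UMIs, Ly6c2 was 2391.5 CPM.

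Among T cells, Ly6c2 separated the subsets most. CD8 T cells had more of it than conventional CD4 T cells by a log2 difference of 2.64 ± 0.13 (adjusted p = 2.68e-13, edgeR, 3 CD45 libraries), with no overlap between 997 to 1638 CPM and 199 to 227 CPM. In the CD4 libraries with at least 20 CD8 T cells, CD8 T cells held 942 CPM in WT_CD4 1, 481 CPM in Lag3KO_CD4 1 and 983 CPM in Lag3KO_CD4 2. Ly6d was also called (2.30, adjusted p = 0.0021), but 30 of its 31 UMIs in WT_CD45 1 lay in 1 barcode and DESeq2 did not call it (adjusted p = 0.554). Together 2 of 5 members tested were higher in CD8 T cells, where 4.91% of 4665 genes were called. Ly6a was lower by -0.37 and missed the threshold (adjusted p = 0.0562). Ly6a in gamma delta T cells stood at 1536 CPM in WT_CD45 1, 3164 CPM in Lag3KO_CD45 1 and 2450 CPM in WT_CD4 2, whereas Ly6c2 there was 17.2, 67.6 and 21.2 CPM.

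Regulatory T cells (Tregs), which restrain immune responses, carried less Ly6c2 than conventional CD4 T cells of the same library. Tregs held 86.3 and 99.5 CPM in the WT_CD4 libraries, 122 and 189 CPM in the Lag3KO_CD4 libraries, 103 CPM in WT_CD45 1, 40.9 CPM in the library labelled WT_CD45 2 and 193 CPM in Lag3KO_CD45 1. Conventional CD4 T cells held 240, 245, 118, 224, 219, 199 and 227 CPM in the same order. Tregs were lower in 6 of the 7 libraries, Lag3KO_CD4 1 being the exception. In Leiden clusters made without Ly6 genes, Tregs were lower in all 7 and the gap was wider, at 51.1 against 235 CPM in WT_CD4 1, 67.4 against 109 CPM in Lag3KO_CD4 1 and 33.3 against 330 CPM in Lag3KO_CD45 1. Between the marker classes the log2 difference was -0.88 ± 0.18 (adjusted p = 0.00245, edgeR, 7 libraries with library as a block), and it lay between -1.06 and -0.75 with any 1 library left out. Ly6e was called higher in Tregs by 0.15 (adjusted p = 0.0459) and lost that call in 9 of 11 alternatives, while Ly6a, at -0.21, was not called (adjusted p = 0.117). Its direction differed between the sorts, which was not tested. Tregs held 1255, 1434, 1448 and 2008 CPM of Ly6a in the CD4 libraries against 1793, 2089, 1874 and 2220 CPM. In the CD45 libraries they held 1305, 1703 and 1782 CPM against 1325, 1304 and 1534 CPM. Leiden Tregs were lower in each CD4 library, but higher in the CD45 libraries (2031, 1810 and 2066 against 1219, 1271 and 1536 CPM). Of the 4 members tested, 1 was higher and 1 was lower, where 14.5% of 6979 genes were called. The interferon list, fixed without any Ly6 gene, had 7 of 27 members higher and none lower in Tregs.

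Resting and effector conventional CD4 T cells, told apart by markers such as Tcf7 and Lef1 against Cxcr6 and Bhlhe40, differed in both Ly6C genes, and in opposite directions. Ly6c2 was 35.9 CPM in resting cells of WT_CD4 1, 60.9 in WT_CD4 2, 104 in Lag3KO_CD4 1 and 37.2 in Lag3KO_CD4 2, against 319, 338, 131 and 293 CPM in effector cells. Ly6c1 was 34.0, 47.9, 41.6 and 53.9 CPM in resting cells against 9.90, 5.99, 9.42 and 11.8 CPM in effector cells. For neither gene did the 2 sets overlap. From resting to effector cells Ly6c2 rose and Ly6c1 fell: the differences, resting minus effector, were -2.35 ± 0.19 for Ly6c2 (adjusted p = 1.87e-12) and 2.27 ± 0.26 for Ly6c1 (adjusted p = 9.15e-09, edgeR, 4 CD4 libraries). Ly6c1 therefore made up 46.2% of the pair's UMIs in resting cells (79 of 171, 38.6% to 54.0%) and 3.47% in effector cells. Of the 4 members tested, 2 were higher and 1 was lower in resting cells, where 16.9% of 6579 genes were called; the third call, Ly6e (0.17, adjusted p = 0.0261), was lost with DESeq2 (adjusted p = 0.228), and Ly6a differed by 0.04. Few resting cells carried either gene, 2.14% to 5.97% with a Ly6c2 UMI and 4.63% to 6.97% with a Ly6c1 UMI, at median depths of 1603 to 1984 UMIs.

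**Figure D3:**
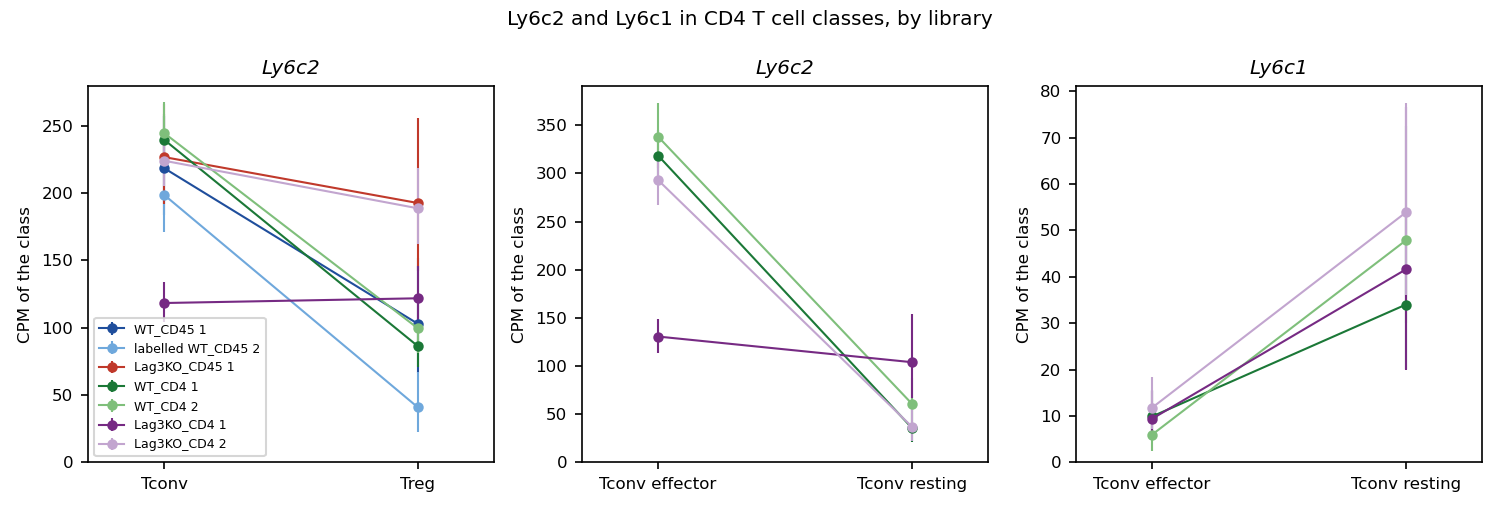
Levels (CPM) of Ly6c2 in conventional CD4 T cells (Tconv) and Tregs, and of Ly6c2 and Ly6c1 in effector and resting conventional CD4 T cells, with 1 line per library and bars for the 95% Poisson interval of the count. Resting cells of the CD4 libraries lie below effector cells for Ly6c2 and above them for Ly6c1, and Tregs lie below conventional CD4 T cells for Ly6c2 in 6 of 7 libraries.

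Type I interferon induces a known set of genes, several Ly6 genes among them in other settings. In each library, the 25% of barcodes of a class with the highest share of UMIs from a list of 30 interferon-response genes, none of them a Ly6 gene, were set against the rest. Among monocytes, intermediate cells and macrophages of the CD45 libraries, taken as 1 class, Ly6c2 was 2874, 4565 and 2859 CPM in the interferon-high barcodes against 1617, 1352 and 1349 CPM in the others. Ly6a was 1399, 1371 and 1210 CPM against 938, 721 and 990 CPM. Neither gene overlapped. The log2 differences were 1.31 ± 0.10 for Ly6c2, 1.19 for Ly6c1, 0.68 ± 0.08 for Ly6a and 0.66 ± 0.06 for Ly6e; Ly6i (-0.24) and Ly6d (-2.07) were lower. That is 4 of 6 members higher and 2 lower, where 23% of 9169 genes were called, 1311 higher and 797 lower by edgeR and 744 higher and 180 lower by DESeq2. All 30 listed interferon genes were higher, which the choice of barcodes fixes. Ly6d was low throughout, at 2.59 to 12.1 CPM in the interferon-high barcodes and 19.8 to 58.4 CPM in the others. The Ly6d difference was -2.83 to -1.22 with any 1 library left out, and 6 of 8 alternatives kept the call. As given above, a few barcodes held much of the Ly6d of macrophages.

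The interferon-high barcodes held more monocytes, 52.1% to 68.7% against 12.2% to 22.5% of the others, and fewer UMIs per barcode, a median of 4566 to 5177 against 6042 to 6934.5. Within monocytes alone, Ly6c2 was higher by 0.56 ± 0.12 (adjusted p = 0.00497), Ly6a by 0.73 and Ly6e by 0.43, where 14.2% of 4993 genes were called. Within macrophages alone, Ly6c2 was higher by 0.48 ± 0.12 (adjusted p = 0.0244), Ly6a by 0.83 and Ly6e by 0.38, where 5.3% of 8229 genes were called. The Ly6c2 difference was thus smaller within each class than in the pooled cells, and that of Ly6a was not; the part of the class makeup in the pooled differences was not tested further. Ly6i did not keep its direction: it was 0.12 in monocytes (adjusted p = 0.558) and -0.33 in macrophages.

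Interferon-high conventional CD4 T cells had more of the 3 members tested. Ly6c2 was higher by 1.26 ± 0.14, Ly6a by 0.81 ± 0.06 and Ly6e by 0.45 ± 0.06 (edgeR, 7 libraries with library as a block), where 7.54% of 5267 genes were called, and these 3 calls held in all 11 alternatives. Ly6a stood at 2074 to 2958 CPM in the interferon-high barcodes and at 989 to 1977 CPM in the others over the 7 libraries, and in each library the interferon-high barcodes were higher. Across classes the picture differed: in macrophages against monocytes, 28 of the 30 interferon genes were lower, with a median of -1.35, among them Ifitm3 (-1.52), an antiviral membrane protein, and Ifi27l2a (-1.26), while Bst2 differed by 0.05. Ly6c2, Ly6c1 and Ly6e were lower there too, and Ly6i was higher. In plasmacytoid dendritic cells, 24 of the 30 were lower and 3 were higher than in monocytes, and Ly6a was higher.

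**Figure D4:**
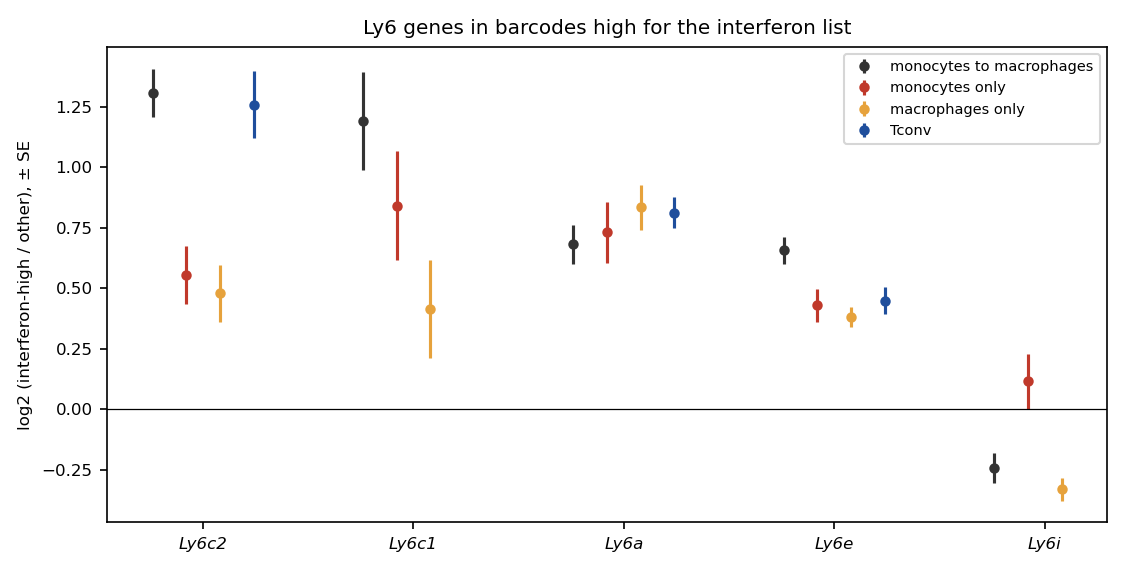
Log2 differences of the members (edgeR, bars are SE) between interferon-high and other barcodes, for monocytes, intermediate cells and macrophages pooled, for monocytes and macrophages alone, and for conventional CD4 T cells (Tconv). Ly6a and Ly6e lie above 0 in all of them, and the Ly6c2 difference is smaller within monocytes or macrophages than in the pool.

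The study set Lag3KO against WT cells. In monocytes no gene of 8170 passed the edgeR test (0%; 398 genes, 2 of them members, at an unadjusted p under 0.05, and 0 by DESeq2), in macrophages none of 10246 (0%; 390 and 1 member, and 1 gene by DESeq2) and in conventional CD4 T cells none of 9734 (0%; 296 and 0 members, and 0 by DESeq2). The members' log2 differences, Lag3KO minus WT, ran from -0.99 to 1.35 in monocytes, from -0.86 to 0.30 in macrophages and from -0.37 to 0.14 in conventional CD4 T cells. Ly6c2 differed by -0.21 ± 0.15 in monocytes and -0.01 ± 0.17 in macrophages, Ly6i by -0.14 ± 0.21 and -0.20 ± 0.16, and Ly6e by -0.10 ± 0.15 and 0.03 ± 0.11, none of which passed. Ly6c1 had the lowest values, -0.99 ± 0.32 in monocytes and -0.86 ± 0.23 in macrophages, with 47.5, 70.6 and 29.6 CPM in monocytes of WT_CD45 1, the library labelled WT_CD45 2 and Lag3KO_CD45 1. In conventional CD4 T cells Ly6a differed by 0.14 ± 0.10, Ly6c2 by -0.26 ± 0.20 and Ly6e by -0.08 ± 0.09. The CD45 comparisons had 1 Lag3KO library, so their spread came from the WT pair alone, and neutrophils, with 1 library on each side, had no test. The difference between the CD4 and the CD45 libraries in the effect of genotype passed for no gene in conventional CD4 T cells (0% of 9734; 372 at an unadjusted p under 0.05) or in Tregs (0% of 8714; 433). In neutrophils of the CD4 libraries, edgeR called 0 of 5 members tested (1 at an unadjusted p under 0.05), where 0.494% of 810 genes were called and DESeq2 called 3. Ly6c2 in these neutrophils was 1298 and 1281 CPM in the WT and 656 and 1050 CPM in the Lag3KO libraries (-0.72 ± 0.29, adjusted p = 0.533).

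In plasmacytoid dendritic cells, 2 of 6 members tested were lower in Lag3KO_CD45 1 than in the WT_CD45 libraries, where 0.778% of 4115 genes were called. Ly6d was lower by -0.40 ± 0.11 (adjusted p = 0.0341), and 74 of 84 Lag3KO barcodes had a Ly6d UMI against 55 of 55 and 56 of 56. Ly6i was lower by -1.59 ± 0.40, and 22 of the 48 Ly6i UMIs of the library labelled WT_CD45 2 came from 1 barcode. Lyz2 in these cells was 426 CPM in WT_CD45 1, 1786 CPM in the library labelled WT_CD45 2 and 233 CPM in Lag3KO_CD45 1. Brought along with Lyz2 as above, Ly6i would have been 19.6, 90.9 and 9.90 CPM, against 63.9, 179 and 41.6 CPM measured. The part of such RNA in the Ly6i difference was not tested. Both calls were lost with DESeq2 (adjusted p = 1.0) and without a filter on low counts (adjusted p = 0.874), and the Ly6d call also with stricter marker limits (adjusted p = 0.931).

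In Tregs, 4 of 8714 genes were called (0.0459%), and 1 with DESeq2, and none was a member. Ly6c2 came closest, with 86.3, 99.5, 103 and 40.9 CPM in the WT and 122, 189 and 193 CPM in the Lag3KO libraries, which did not overlap. In Leiden clusters they did: Treg levels were 51.1, 49.7, 24.8 and 18.3 CPM in the WT and 67.4, 99.7 and 33.3 CPM in the Lag3KO libraries, the CD45 values resting on 4, 4 and 5 UMIs. How many of all genes separate the genotypes in the marker classes was not counted. Brought along with Lyz2 as above, Ly6c2 in Tregs would have been 47.7 CPM in WT_CD45 1, 26.2 CPM in the library labelled WT_CD45 2 and 22.2 CPM in Lag3KO_CD45 1. The log2 difference between the marker classes was 0.96 ± 0.22 (unadjusted p = 0.000346, adjusted p = 0.189, edgeR; without Lag3KO_CD4 1 it was 1.18 with an adjusted p of 0.0455), and 33 of the 48 Ly6c2 UMIs of Lag3KO_CD45 1 Tregs lay in 1 barcode. UMIs of the interferon list in Tregs overlapped between genotypes, at 53.6, 80.9, 72.3 and 61.0 per 10000 in the WT and 55.3, 108 and 66.3 in the Lag3KO libraries. Ly6a in Tregs was 1255, 1434, 1305 and 1703 CPM in the WT and 1448, 2008 and 1782 CPM in the Lag3KO libraries, which overlapped (0.32 ± 0.13, adjusted p = 1.0). The step from conventional CD4 T cells to Tregs was then compared between genotypes, a test chosen after these levels had been seen. Ly6c2 differed by 1.33 on the log2 scale (adjusted p = 0.0455), as 1 of 4 members tested and 1 of 6979 genes (0.0143%). Without any 1 library the difference was 1.19 to 1.43. It lost its call without WT_CD4 1 (adjusted p = 0.247), WT_CD4 2 (0.124), Lag3KO_CD4 1 (0.134), Lag3KO_CD4 2 (0.258) or Lag3KO_CD45 1 (0.0695), when Ly6c1 and Ly6c2 were summed (0.19) and with stricter marker limits (1.0). Lag3KO_CD4 1 also had the lowest Ly6c2 in conventional CD4 T cells, 118 CPM against 199 to 245 CPM in the other 6 libraries.

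Microglia, the resident macrophages of the brain and spinal cord, were compared after the levels had been seen. Ly6a in microglia was 278 and 171 CPM in the WT_CD4 libraries, 320 CPM in the library labelled WT_CD45 2, 733 and 466 CPM in the Lag3KO_CD4 libraries and 677 CPM in Lag3KO_CD45 1; WT_CD45 1 had 16 microglia and was not used. The genotypes did not overlap. In Leiden clusters they did, with 908 CPM in WT_CD45 1 and 755 CPM in the library labelled WT_CD45 2 against 508 CPM in Lag3KO_CD4 2, though not within the CD4 libraries (312 and 209 CPM in the WT, 746 and 508 CPM in the Lag3KO). The Leiden microglia clusters held 227 barcodes of the macrophage class beside 358 of the microglia class. How many of all genes separate the genotypes in the marker class was not counted. If all Lyz2 UMIs of microglia had come from monocytes and macrophages, Ly6a would have been 294 CPM in the library labelled WT_CD45 2 and 335 CPM in Lag3KO_CD45 1, but 16.3 to 79.1 CPM in the CD4 libraries. Ly6a was higher in Lag3KO microglia by 1.27 ± 0.22 (adjusted p = 0.00106, edgeR with sort as a term), as 1 of 4 members tested, where 0.398% of 4776 genes were called. The difference was 1.01 to 1.44 with any 1 library left out, and the call was lost without WT_CD4 2 (adjusted p = 0.0674) or Lag3KO_CD4 1 (0.0693), with DESeq2 (0.0645) and with stricter marker limits (0.0542). After thinning to 1000 UMIs, 22.7%, 14.3% and 6.90% of WT microglia and 34.5%, 26.5% and 34.8% of Lag3KO microglia had a Ly6a UMI. UMIs of the interferon list moved with it in part, at 70.5, 47.0 and 55.3 per 10000 in the WT and 70.6, 75.9 and 75.0 in the Lag3KO libraries; edgeR called 0 of the 24 listed genes tested (6 at an unadjusted p under 0.05), and their part in the Ly6a difference was not tested.

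**Figure D5:**
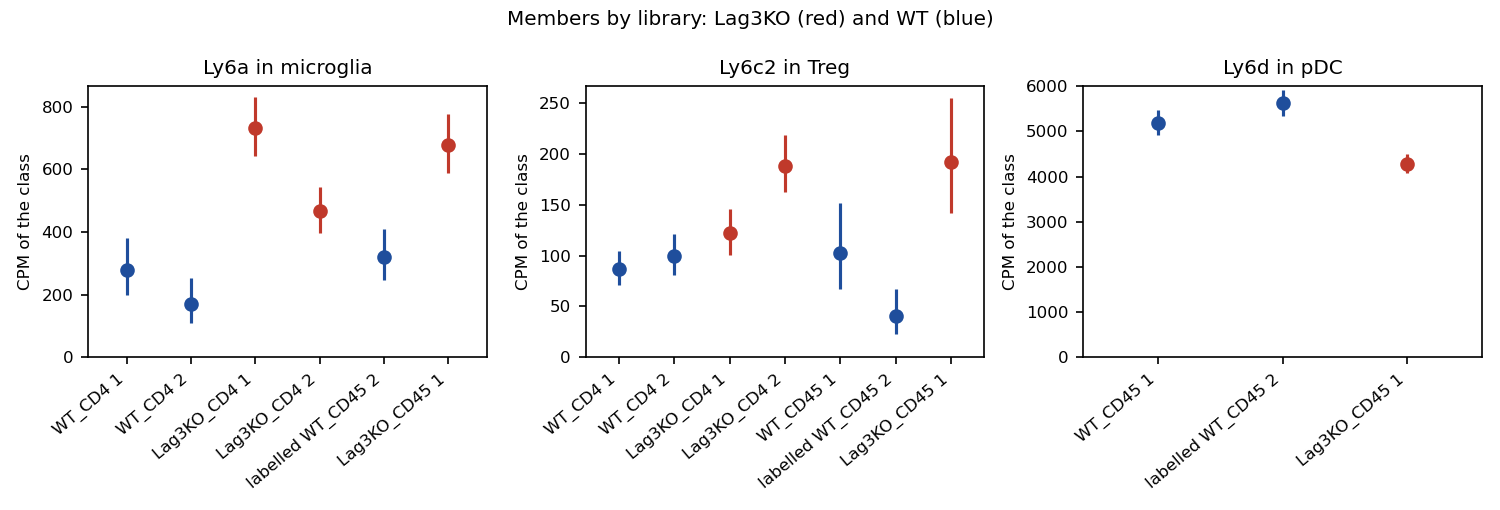
Levels (CPM) by library of Ly6a in microglia, Ly6c2 in Tregs and Ly6d in plasmacytoid dendritic cells (pDC), Lag3KO in red and WT in blue, with bars for the 95% Poisson interval of the count. In these marker classes Lag3KO and WT libraries do not overlap for Ly6c2 in Tregs (WT at most 103, Lag3KO at least 122) or for Ly6a in microglia (WT at most 320, Lag3KO at least 466), whereas in Leiden clusters both overlap. How many of all genes separate the genotypes in this way was not counted.

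Over 42 class-by-library profiles of the CD45 libraries, the genes whose log2(CPM + 10) followed a member's most closely were taken as a description, since profiles of a library share its depth and several of these genes were class markers. Ly6g went with Ltf (r = 0.964), Fcnb and Cebpe (both 0.961), genes of granule formation, and Ly6i with Tgfbi (0.931), the class marker Lyz2 (0.926) and the scavenger receptor Msr1 (0.92). The r values of Ly6g rest mainly on 2 neutrophil profiles, since no other class was above 11.1 CPM. Genes restricted to neutrophils can score high there whatever their role, as the neutrophil marker Retnlg did (0.957). Ly6d went with Gm43291 and Fcrla (both 0.898), Hs3st1 (0.893), Mzb1 (0.892), which aids antibody secretion, and Lynx1 (0.864). Ly6c2 went with Ly6c1 (0.851), Adssl1 (0.824), Plaur (0.816), which encodes the urokinase receptor, and the monocyte marker Plac8 (0.809). Ly6e went with Cyth4 (0.881) and Ly6a with Bccip (0.834). Among the members themselves, Ly6a and Ly6e had r = 0.769 and Ly6a and Ly6c2 r = 0.182.

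Of 32 further genes of the Ly6 and uPAR family listed for comparison, 28 were in the files, 8 of those had no UMI and 23 had under 100. The most UMIs were those of Plaur (5265), Ly6g5b (1263), Ly6k (348) and Lynx1 (217). Plaur was lower in macrophages than in monocytes by a log2 difference of -1.20 and higher in interferon-high monocytes and macrophages by 1.02. Ly6g5b was lower in Tregs (-1.71 ± 0.25, adjusted p = 1.39e-04), CD8 T cells (-2.99) and resting cells (-2.52) than in the conventional or effector CD4 T cells they were set against. Its levels were 76.9 to 142 CPM in conventional CD4 T cells and 249 to 383 CPM in gamma delta T cells.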

How the data were processed

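Single-cell RNA was counted with 10x 3′ chemistry, per the labels' protocols, in 7 libraries, and the deposited values are UMI counts per gene and barcode made by the authors with Cell Ranger (version 3.0.2 per the file headers of the CD4 matrices, not given in those of the CD45 matrices). The submitters' processing notes name Cell Ranger, Seurat and GRCm38/mm10. Members and gene lists were chosen with earlier results of these data known.

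Barcodes with at least 200 genes and at most 10% mitochondrial UMIs were kept. Classes came from marker UMIs with no Ly6 gene, with limits set after marker and member levels had been seen and before any test between genotypes. No doublet caller was run: barcodes with markers of different lineages, 1.83% to 4.11% of CD4 and 18.7% to 24.4% of CD45 barcodes kept, were set apart. The UMIs of each class of 20 or more barcodes in a library were added up and tested over all genes with edgeR's quasi-likelihood test (TMM, filterByExpr, Benjamini-Hochberg, threshold 0.05; edgeR 4.0.16, R 4.3.3), with library or sort as a term where stated; DESeq2 1.42.0 was an alternative. Resting and effector T cells were compared in the 4 CD4 libraries, since the CD45 libraries held too few resting cells, and neutrophils against monocytes used the 2 CD45 libraries with enough neutrophils. The microglia, CD4-library neutrophil and Treg-to-conventional comparisons between genotypes were added after levels had been seen. Named genes were the members, the 4 other family genes with the most UMIs, the 3 interferon genes with the most UMIs and the 5 genes most correlated with each member. On simulated counts, edgeR found 74% of genes changed 2-fold in macrophages against monocytes, and 26% in monocytes between genotypes. Intervals (95%) and limits for a count of 0 cover counting error only. Other alternatives were no filter on low counts, stricter marker limits, Ly6c1 and Ly6c2 summed, thinning to 1000 UMIs, Leiden clusters made without Ly6 genes, and each library left out.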

Additional observations from a re-analysis of the deposited data

Results flagged for a closer look

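The step in Ly6c2 from conventional CD4 T cells to Tregs differed between genotypes by 1.33 on the log2 scale (adjusted p = 0.0455, edgeR, 7 libraries), and this test of the difference itself put it here. Ly6c2 was lower in Tregs in each of the 4 libraries labelled WT, at 40.9 to 103 CPM against 199 to 245 CPM in conventional CD4 T cells. In the Lag3KO libraries it was 224 against 189 CPM in Lag3KO_CD4 2, 227 against 193 CPM in Lag3KO_CD45 1, and 118 against 122 CPM in Lag3KO_CD4 1. Of the 48 UMIs behind the Treg level of Lag3KO_CD45 1, 33 lay in 1 barcode. In Leiden clusters made without Ly6 genes, where no test was run, Tregs were lower in all 3 Lag3KO libraries (240 against 99.7, 330 against 33.3 and 109 against 67.4 CPM in the same order), where WT_CD45 1 had 309 against 24.8 CPM and the library labelled WT_CD45 2 had 317 against 18.3 CPM. DESeq2 called it too (adjusted p = 0.00136), and edgeR without a filter on low counts did (adjusted p = 1.15e-07). That unfiltered setting called more genes for this step than the main one, as given below. The alternatives that lost the call are given with the Treg results above, and the test was chosen after the levels had been seen. Without the library labelled WT_CD45 2, which held 4 Lag3 UMIs, the difference was 1.19 (adjusted p = 0.0428).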

How the results depend on the processing

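No paired analysis was possible because the replicate numbers of these libraries follow accession order and pair nothing. Of 39 results on single genes, 21 kept their direction and side of the threshold under every alternative run; of 300 values under alternatives, 244 did so, 45 lost the call, 8 gained one and 3 changed sign: Ly6a in macrophages against monocytes (0.40) and Ly6c2 in plasmacytoid dendritic cells against monocytes (-0.11) with stricter marker limits, and Ly6i in interferon-high monocytes only (0.12). With DESeq2, fewer genes were called: 1389 for macrophages against monocytes (edgeR 2980), 1744 for plasmacytoid dendritic cells (2982), 260 for neutrophils (886), 50 for CD8 T cells (229), 462 for resting cells (1113) and 924 for interferon-high monocytes and macrophages (2108, with 707 in monocytes only and 436 in macrophages only). Between genotypes DESeq2 called 1 gene in macrophages, 0 in plasmacytoid dendritic cells (edgeR 32), 1 in Tregs (4) and 2 in microglia (19). With no filter on low counts the calls between genotypes were 63 in monocytes, 112 in macrophages, 0 in plasmacytoid dendritic cells, 65 in conventional CD4 T cells, 60 in Tregs, 14 in CD4-library neutrophils, 45 in microglia and 23 for the step from conventional CD4 T cells to Tregs, and 625 genes were called in interferon-high conventional CD4 T cells (397). Stricter marker limits gave 43 in monocytes, 97 in macrophages, 2 in plasmacytoid dendritic cells, 1 in Tregs, 8 in microglia and 0 for that step, which was also 0 with Ly6c1 and Ly6c2 summed. Macrophages of both sorts gave 2, CD4 libraries alone gave 2 in conventional CD4 T cells, 7 in Tregs and 10 in microglia, and CD45 libraries alone gave 7 in Tregs. Leaving out 1 library gave 0 to 4 calls in conventional CD4 T cells, 0 to 16 in Tregs, 8 to 42 in CD4-library neutrophils, 5 to 40 in microglia, 0 to 1 for the step to Tregs, 100 to 288 for CD8 T cells (fewest without the library labelled WT_CD45 2), 727 to 1009 for resting cells (fewest without WT_CD4 1) and 1390 to 1804 for interferon-high monocytes and macrophages (fewest without the library labelled WT_CD45 2); an arm left with 1 library was assumed to vary like the others. Leaving out a library gave no test for genotype in monocytes, macrophages and plasmacytoid dendritic cells or for neutrophils against monocytes. Thinned, 73.9% of CD45 monocytes had a Ly6c2 UMI and 59.6% of macrophages a Ly6i UMI. In Leiden clusters, Ly6i in macrophages was 1558 CPM and Ly6d in plasmacytoid dendritic cells 3846 CPM, and 2 separations between genotypes were lost: Ly6c2 in Tregs (33.3 CPM in Lag3KO_CD45 1 against 51.1 CPM in WT_CD4 1) and Ly6a in microglia (508 CPM in Lag3KO_CD4 2 against 908 and 755 CPM in the CD45 libraries labelled WT). The cause of these shifts was not tested, except that fewer libraries or genes enter by construction where stated. CD4-library myeloid classes and CD45 neutrophils held too few barcodes for a finer split.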
